A study of Macaca mulatta with 161 samples.

Results

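NODAL and its close partners were followed through 4 stages of the rhesus monkey (Macaca mulatta) blastocyst, 1 cell at a time. The group holds 6 genes, taken by symbol from the 16049 rows of the expression table: the ligands NODAL and GDF3, the co-receptors TDGF1 and CFC1, and the inhibitors LEFTY1 and LEFTY2. All 6 have a row, and all 6 are among the 9781 genes with a mean of at least 1 FPKM over all cells. FPKM, the unit of the deposited table, counts the fragments of a gene relative to its length in kilobases and to all fragments mapped in the cell, so levels can be set side by side between genes.

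NODAL is a secreted factor of the TGF-beta family that signals through activin receptors and SMAD proteins, and the EGF-CFC proteins TDGF1 (Cripto) and CFC1 (Cryptic) present it to these receptors. GDF3 is a related ligand. The LEFTY proteins are secreted relatives that block NODAL signalling and are themselves switched on by it in mouse and zebrafish embryos. In the mouse the pathway is known for keeping the epiblast pluripotent around implantation and later for patterning the germ layers. The epiblast (EPI) gives the embryo proper, and the primitive endoderm (PE) lines the yolk sac.

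The 161 libraries each hold polyA RNA of a single inner cell from embryos fertilised in vitro and cultured in HECM-9 medium with serum; the labels name no genetic or drug treatment of the embryos. The oocytes came from hormone-stimulated females. Outer cells were stained with the dye PKH26, and cells free of it were taken. Early blastocysts with a small cavity (about day 5) gave 44 cells, middle blastocysts (about day 5.5) 39, late blastocysts (labelled later, about day 6) 52 and hatching blastocysts (about day 7) 26. The labels name no embryo, so a stage counts as 1 sample and its cells do not serve as replicates. All values are descriptions, the SD is the spread between cells, and no p-value is given. POU5F1, a pluripotency factor of inner cells, was at 1 FPKM or more in all 161 cells.

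Depth recovered from the table's steps was 11.9 M reads (megareads) per cell at the median (3.15 to 20.1 M). At the median depth 1 FPKM equals 28.9 reads of NODAL, 14.6 of GDF3, 23.7 of TDGF1, 14.7 of CFC1, 19.3 of LEFTY1 and 25.7 of LEFTY2. A cell is called positive for a gene at 1 FPKM or more, and shares carry exact Clopper-Pearson 95% intervals that cover the counting of cells only. Fewer RNA molecules in a cell and loss of RNA before amplification cannot be told apart in a cell below that level. LEFTY1 and LEFTY2 are close paralogs, and TDGF1 and CFC1 have near-identical copies in the human genome, so reads may be split between copies in the counting.

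Late and hatching cells fell into 2 clusters each, built without the 6 genes, the pathway genes or any cell type marker. Named from those markers, they were 24 EPI-like and 28 PE-like late cells, and 19 EPI-like and 7 PE-like hatching cells. In the late stage 11 of 11 EPI markers stood at least 1 log2 unit higher in EPI-like cells and 15 of 16 PE markers in PE-like cells, and in the hatching stage 10 of 11 and 16 of 16. Early and middle cells were given no class. When early cells were clustered in the same way, 1 cell formed a cluster of its own, with POU5F1 at 82.2 FPKM and NANOG at 6.45 FPKM. Markers of the outer layer, the trophectoderm (TE), had overlapping mean log2 levels in the late classes, from 2.61 to 4.31 over EPI-like cells and from 2.58 to 6.14 over PE-like cells.

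NODAL RNA was sparse in early and middle cells and common from the late stage on. It ranged from 0 through a median of 0.028 to 39.9 FPKM in early cells and from 0 through 0.032 to 59.2 FPKM in middle cells. In late cells it ranged from 0 through 1.61 to 199 FPKM, and in hatching cells from 0.15 through 57.2 to 316 FPKM. Most early and middle cells were at or near 0, late cells divided into a low and a high set, and hatching cells were mostly high, although the ranges of the 4 stages overlap.

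Positive cells were 22.7% of early (10 of 44, 11.5% to 37.8%), 15.4% of middle, 50.0% of late (26 of 52, 35.8% to 64.2%) and 84.6% of hatching cells (22 of 26, 65.1% to 95.6%). Positive cells were mostly far above the threshold: the 10 in the early stage had at least 9.11 FPKM, and the 22 in the hatching stage at least 16.4 FPKM. On the scale of log2(FPKM + 1), where changes of low genes are understated, the stage means were 1.01 ± 1.80 (SD, n = 44 cells), 0.69 ± 1.58 (n = 39), 2.85 ± 2.80 (n = 52) and 5.15 ± 2.34 (n = 26). Hatching stood 4.14 above early, more than the spread between cells, while early and middle differed by less than it.

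In the late stage every EPI-like cell and few PE-like cells had NODAL at 1 FPKM or more. It ranged from 11.1 through 54.3 to 199 FPKM in late EPI-like cells and from 0 through 0.15 to 22.3 FPKM in late PE-like cells. All 24 EPI-like cells were positive, against 2 of 28 PE-like cells, and 20 of the 24 lay above the highest PE-like cell. The count of PE-like cells depends on the threshold: with 3 recovered reads as positive, 24 of 24 EPI-like and 19 of 28 PE-like cells held NODAL, at a median of 1378 reads per EPI-like cell and 4 reads per PE-like cell. The mean difference was 5.23 log2 units. Both positive PE-like cells held NANOG beside SOX17. The one at 22.3 FPKM had NANOG at 1005 and SOX17 at 62.7 FPKM, with mean log2 levels of 4.39 for EPI and 3.28 for PE markers. The other, at 2.33 FPKM, had NANOG at 195 and SOX17 at 7.01 FPKM, with 3.69 for EPI and 4.37 for PE markers. Its EPI marker level was close to the median of middle cells, 3.71. Whether these libraries hold more than 1 cell was not tested.

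Hatching PE-like cells were divided. NODAL was 0.15, 0.21, 0.37, 20.1, 87.9, 236 and 316 FPKM in the 7 PE-like cells, against a range from 0.28 through 62.7 to 166 FPKM in the 19 EPI-like cells. Hence 3 PE-like cells were below 1 FPKM, 4 were positive, and 2 of these lay above every EPI-like cell of the stage. The cell at 316 FPKM holds the highest NODAL value of all 161.

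The mean of log2(FPKM + 1) was 5.57 ± 1.56 (SD, n = 19 cells) in hatching EPI-like and 4.001 ± 3.67 (SD, n = 7 cells) in hatching PE-like cells, a difference of 1.57. With the means taken before the log, the sign turned and the difference was -0.52. Without the PE-like cell at 316 FPKM it was 0.19, so that the turn rested on 1 of 7 cells, and the difference of mean logs was then 2.29. The 4 positive PE-like cells carried endoderm markers and little NANOG: NANOG was 1.73 to 8.05 FPKM and SOX17 106 to 452 FPKM. Mean log2 levels of the 11 EPI markers reached at most 2.18 in any of the 7 cells, against at least 5.73 in each EPI-like cell. PE-like cells stood 3.56 higher in NODAL at hatching than at the late stage, whereas EPI-like cells differed by -0.10.

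GDF3, the second ligand, had the highest mean of the 6 in EPI-like cells, 7.80 in late and 8.75 in hatching cells. It ranged from 0 through 17.8 to 135 FPKM in early cells, from 0 through 4.89 to 124 FPKM in middle cells, from 0 through 13.7 to 1080 FPKM in late cells and from 0.94 through 348 to 1907 FPKM in hatching cells. The stages overlap, and the late stage again splits into a low and a high set. Mean log2 levels were 3.53 ± 2.42, 2.28 ± 2.09, 4.47 ± 3.59 and 6.97 ± 3.32 in early, middle, late and hatching cells, so middle cells were lowest and hatching cells stood 3.44 above early cells.

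By class, GDF3 ranged from 0.084 through 290 to 1080 FPKM in late EPI-like cells and from 0 through 0.75 to 69.9 FPKM in late PE-like cells. In the hatching stage it ranged from 18.7 through 515 to 1907 FPKM in EPI-like cells and from 0.94 through 2.97 to 20.04 FPKM in PE-like cells. Of the EPI-like cells, 22 of 24 late and 18 of 19 hatching cells lay above every PE-like cell of their stage. The differences of 6.18 in the late and 6.59 in the hatching stage were the largest of the 6 genes in either stage. In PE-like cells GDF3 had a mean of 2.15 at hatching and 1.62 in the late stage, a difference of 0.53, against 3.56 for NODAL.

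Nearly every EPI-like cell held both ligands. One late EPI-like cell had GDF3 at 0.084 FPKM with NODAL at 74.1 FPKM, and one hatching EPI-like cell had NODAL at 0.28 FPKM with GDF3 at 403 FPKM. Both ligands were positive in 6 of 44 early, 4 of 39 middle, 25 of 52 late and 21 of 26 hatching cells.

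TDGF1, the co-receptor Cripto, was found in most cells of every stage. It ranged from 0.030 through 19.004 to 105 FPKM in early cells, from 0.088 through 9.04 to 52.7 FPKM in middle cells, from 0 through 31.4 to 110 FPKM in late cells and from 0.25 through 58.4 to 157 FPKM in hatching cells. Positive cells made up 81.8%, 76.9%, 75% and 80.8% of the stages, with intervals that overlap. Mean log2 levels of 3.79 ± 2.02, 2.97 ± 1.82, 3.86 ± 2.55 and 4.99 ± 2.31 differed between neighbouring stages by less than the spread between cells.

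Within the later stages TDGF1 had the tightest level over EPI-like cells of the 5 genes other than LEFTY2. It ranged from 22.4 through 59.7 to 110 FPKM in late EPI-like cells and from 0 through 1.19 to 83.3 FPKM in late PE-like cells. It ranged from 32.5 through 74.8 to 157 FPKM in hatching EPI-like cells and from 0.25 through 0.51 to 31.1 FPKM in hatching PE-like cells. At hatching the classes did not overlap, and in the late stage 24 of 28 PE-like cells lay below the lowest EPI-like cell.

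The SD of TDGF1 over late EPI-like cells was 0.58 log2 units and over hatching EPI-like cells 0.56, against 1.03 to 3.12 for NODAL, GDF3, CFC1 and LEFTY1 in the same cells. EPI-like cells stood 3.83 higher than PE-like cells in the late stage and 4.54 higher at hatching. Of the 7 hatching PE-like cells, 2 were positive for TDGF1, at 14.5 and 31.1 FPKM, and these were the 2 cells with the most NODAL.

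CFC1, the co-receptor Cryptic, followed another course, with lower levels between the early and hatching stages. It ranged from 0 through 45.3 to 253 FPKM in early cells, from 0 through 0.17 to 217 FPKM in middle cells, from 0 through 1.29 to 116 FPKM in late cells and from 0.48 through 91.7 to 346 FPKM in hatching cells. Early and hatching cells were mostly high and middle cells mostly near 0, with overlapping ranges. Positive cells were 88.6% of early (39 of 44, 75.4% to 96.2%), 23.1% of middle (9 of 39, 11.1% to 39.3%), 50.0% of late and 92.3% of hatching cells (24 of 26, 74.9% to 99.1%).

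Mean log2 levels of CFC1 were 4.91 ± 2.4, 1.29 ± 2.26, 2.38 ± 2.4 and 6.06 ± 2.06. In the higher range of title numbers, described further on, late and not middle cells were lowest, at 2.77 against 3.69. Over all cells middle stood at -3.62 from early, and hatching at 3.68 from late, both beyond the spread between cells. In the early stage CFC1 was the highest of the 6 genes by its mean, ahead of TDGF1 and GDF3 by less than that spread.

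Both classes had more CFC1 at hatching than in the late stage. It ranged from 0.48 through 124 to 286 FPKM in hatching EPI-like cells and from 0.81 through 36.4 to 346 FPKM in hatching PE-like cells. It ranged from 0 through 12.4 to 116 FPKM in late EPI-like cells and from 0 through 0.30 to 83.4 FPKM in late PE-like cells. The classes overlap widely in both stages. Hatching stood above late by 3.04 in EPI-like and by 3.64 in PE-like cells, and 6 of 7 hatching PE-like cells were positive, against 8 of 28 late PE-like cells.

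LEFTY1 was at 0 in most early and middle cells and present in part of the later ones. It ranged from 0 through a median of 0 to 2465 FPKM in early cells, from 0 through 0 to 23.4 FPKM in middle cells, from 0 through 0.70 to 1457 FPKM in late cells and from 0 through 22.3 to 318 FPKM in hatching cells. In the later stages cells with none stood beside cells with more than any middle cell held. Positive cells were 15.9% (7 of 44, 6.64% to 30.1%), 10.3% (4 of 39), 48.1% (25 of 52, 34.01% to 62.4%) and 61.5% (16 of 26, 40.6% to 79.8%), and mean log2 levels 0.87 ± 2.15, 0.41 ± 1.19, 2.84 ± 3.25 and 3.70 ± 3.12.

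The class difference of LEFTY1 was weak in the late stage. It ranged from 0 through 18.7 to 251 FPKM in late EPI-like cells and from 0 through 0.40 to 1457 FPKM in late PE-like cells. It ranged from 0.031 through 40.8 to 318 FPKM in hatching EPI-like cells and from 0 through 0.53 to 234 FPKM in hatching PE-like cells. The 4 late cells with the most LEFTY1, at 385, 452, 652 and 1457 FPKM, were all PE-like. EPI-like minus PE-like was 1.07 in the late stage, and -1.17 with the means taken before the log. Without the PE-like cell at 1457 FPKM these values were 1.38 and -0.32. In that cell EPI markers had a higher mean log2 level (4.39) than PE markers (3.28). At hatching the difference was 2.87.

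LEFTY1-positive cells of the 2 classes were counted for NODAL. All 13 LEFTY1-positive late EPI-like cells and all 14 LEFTY1-positive hatching EPI-like cells were also NODAL-positive, as nearly all cells of these classes were. Of the 12 LEFTY1-positive late PE-like cells, 10 were below the threshold for NODAL, as nearly all cells of this class were. The other 2 were the only NODAL-positive cells among all 28 late PE-like cells. As a description, the Spearman correlation of LEFTY1 with NODAL was 0.63 over 19 hatching EPI-like, 0.31 over 24 late EPI-like and 0.36 over 28 late PE-like cells. The LEFTY1-rich PE-like cells were a mixed set: SOX17 was 0.068, 52.1, 62.7 and 434 FPKM in the cells with 452, 652, 1457 and 385 FPKM of LEFTY1. Across all 4 stages NODAL-positive cells without either LEFTY were 6 early, 6 middle, 11 late and 7 hatching cells.

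The early cell that stood apart held 2465 FPKM of LEFTY1, the highest value of all 161 cells, with NODAL at 19.1, GDF3 at 0.77, TDGF1 at 0.32 and CFC1 at 1.14 FPKM. Its 6.35 M reads and 5873 genes at 1 FPKM or more were the lowest of the early stage. Without it, LEFTY1 was positive in 6 early cells.

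LEFTY2 stayed rare throughout. It was positive in 4 of 44 early cells (9.09%, 2.53% to 21.7%), 2 of 39 middle cells, 3 of 52 late cells and 2 of 26 hatching cells (7.69%, 0.95% to 25.1%), and its median was 0 FPKM in every stage. The highest values were 66.3 FPKM in early, 14.5 in middle, 14.2 in late and 20.4 in hatching cells. In no stage difference did its mean move by 1 log2 unit.

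The positive cells were set against the other members one by one. All 5 positive late and hatching cells also held LEFTY1 and NODAL, and 4 of them were EPI-like. Of the 6 positive early and middle cells, 5 had LEFTY1 at exactly 0 and NODAL at 0.19 FPKM or less, and all 6 held CFC1. Such values were common there: LEFTY1 was at 0 in 29 of 44 early and 30 of 39 middle cells. Over all 44 early and all 39 middle cells, NODAL was positive in 10 and 6, and CFC1 in 39 and 9. NODAL and LEFTY1 were both positive in 15 of 52 late and 15 of 26 hatching cells. With so few cells this is a description of 11 libraries.

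**Figure D1:**
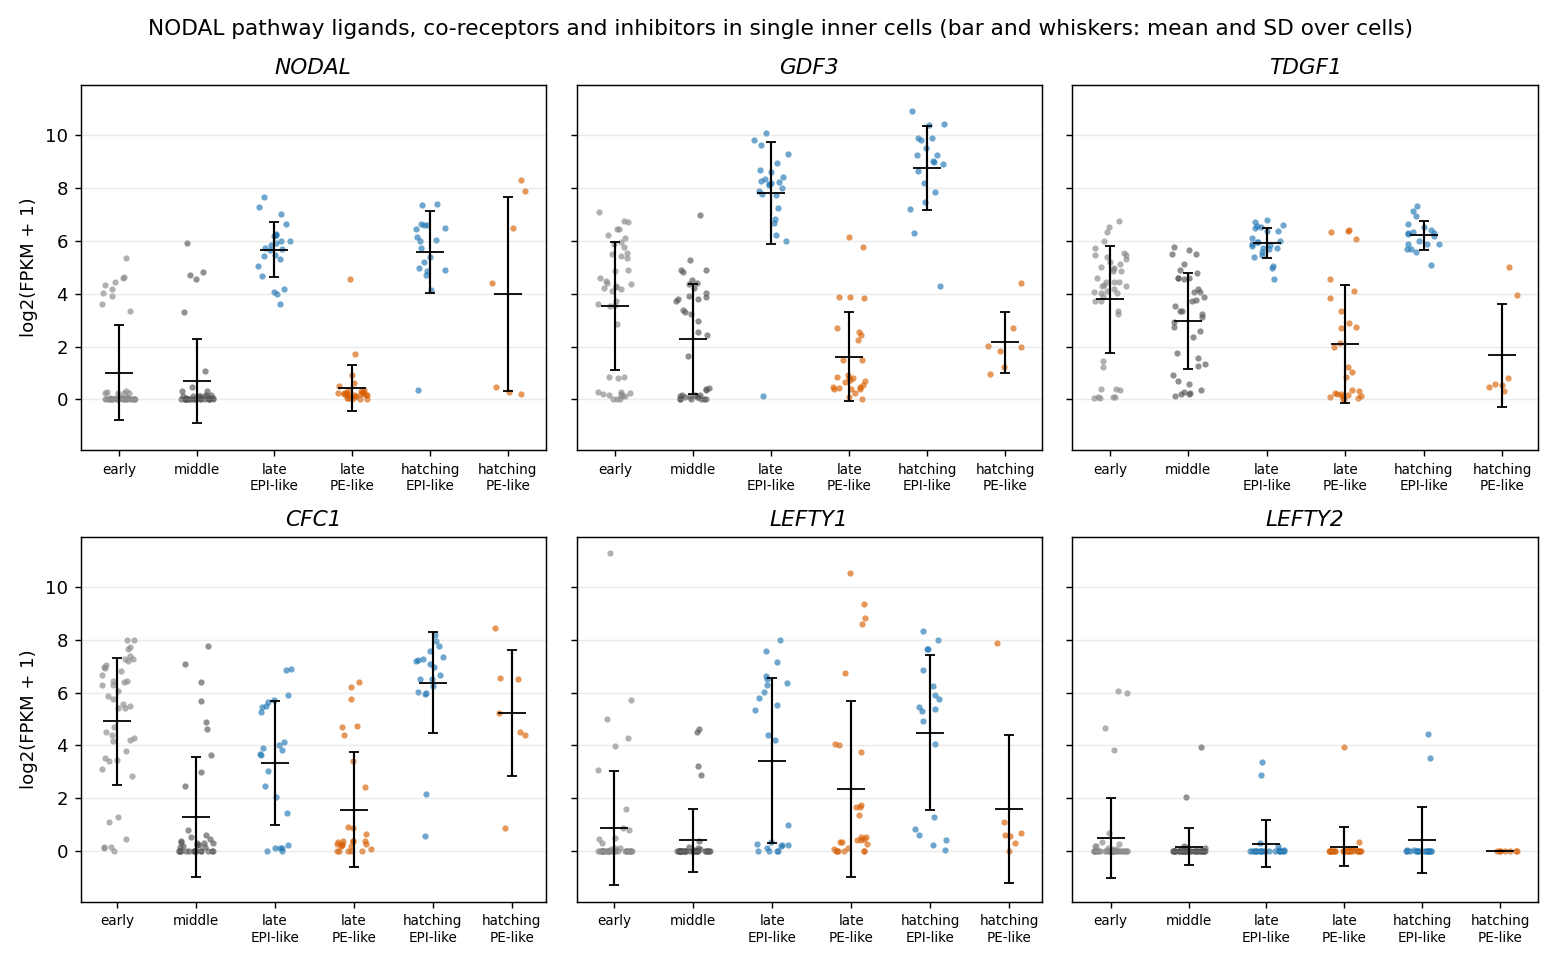
Level of each of the 6 genes in single cells, as log2(FPKM + 1), by stage and, for the late and hatching stages, by class; each point is a cell and the bar with whiskers is the mean and SD over cells. NODAL, GDF3 and TDGF1 are mostly higher in late EPI-like than in late PE-like cells, hatching PE-like cells are divided for NODAL, and CFC1 is high in early and hatching cells.

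The 6 genes were then set against all genes. Here called means a mean difference of at least 1 log2 unit. For hatching minus early 5 of 6 were called higher and none lower, where 11.3% of the 9781 genes were higher and 16.2% lower. The median of the 6 was 2.01, and that of all genes -0.12.

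By steps, 2 of 6 (CFC1 and GDF3) were lower in middle than in early cells, where 3.61% of all genes were lower, and none was higher, where 3.06% were. Late minus middle had 4 of 6 higher (NODAL, GDF3, CFC1 and LEFTY1) against 3.95% of all genes, and none lower against 5.82%. The value for CFC1 was 1.09 over all cells and -0.92 in the higher range of title numbers. Hatching minus late had 4 of 6 higher (NODAL, GDF3, TDGF1 and CFC1) against 7.26%, and none lower against 9.87%. EPI-like cells made up 24 of 52 late but 19 of 26 hatching cells, so that step compares stages with unlike class shares. GDF3 and TDGF1 were not called higher for hatching minus late within either class. Late EPI-like cells minus middle cells had 5 of 6 higher against 7.25% and none lower against 9.18%. Neighbouring steps share a stage and are not independent of each other.

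For EPI-like minus PE-like, 5 of 6 were higher in the late stage against 9.01% of all genes, and none lower against 8.23%. At hatching 5 of 6 were higher against 33.7%, and none lower against 14.2%. All genes lean the same way at hatching, with a median of 0.45. Hatching EPI-like cells had 13.2 M reads and 6940 genes at the median, against 9.74 M and 5680 in PE-like cells, and the part of depth in these differences was not tested. For hatching minus late, 2 of 6 were higher in EPI-like cells (CFC1 and LEFTY1, against 8.31% of all genes) and none lower (7.6%). In PE-like cells 2 of 6 were higher (CFC1 and NODAL, against 11.7%) and none lower (30%).

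NANOG, a core pluripotency factor that is kept in the epiblast, and SOX17, an endoderm factor, gave a second view without clusters. In late cells NODAL was positive in 0 of 17 cells with NANOG below 4 log2 units, which allows a share of up to 17.6%, in 1 of 7 cells between 4 and 8, and in 25 of 28 cells at 8 or more. GDF3 was positive in 4, 4 and 26 of these cells, and TDGF1 in 5, 6 and 28. CFC1 was positive in 5, 2 and 19, and LEFTY1 in 4, 5 and 16. The shares for both ligands and TDGF1 differed more between the outer bins than those for CFC1 or LEFTY1. Within 0.5 of a bound lay 1 late cell at 4 and 3 at 8.

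Over the 52 late cells the Spearman correlation with NANOG was 0.73 for NODAL, 0.72 for GDF3, 0.75 for TDGF1, 0.14 for CFC1, 0.17 for LEFTY1 and 0.19 for LEFTY2. With SOX17 it was -0.68, -0.65, -0.68, -0.14, -0.05 and -0.12. Within the 24 late EPI-like cells the correlation with NANOG was -0.12 for NODAL, 0.07 for GDF3 and -0.33 for TDGF1. Within the 28 late PE-like cells it was 0.25, 0.53 and 0.71, so among PE-like cells those with more NANOG tended to hold more TDGF1. The PE-like cells with NANOG at 8 or more had TDGF1 of 6.06 to 6.40 and SOX17 of 0.09 to 5.99 log2 units. Class was not firm for part of the 28 cells. By mean marker levels 24 late cells were PE-like, and with all stages clustered together 16 were. The correlation was not recomputed for those sets.

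In early and middle cells all but 1 had NANOG above 4, and over all cells of each stage TDGF1 had the highest Spearman correlation with it of the 6 genes. It was 0.59 over 44 early and 0.41 over 39 middle cells, against -0.01 and 0.38 for NODAL, and 0.24 and 0.11 for GDF3. Within the ranges of title numbers described further on, the early value for TDGF1 was 0.25 in the higher and 0.58 in the lower range. In middle cells the order of NODAL and TDGF1 was not firm: Pearson's r was 0.44 for NODAL and 0.41 for TDGF1, and in the lower range the Spearman values were 0.39 and 0.26. All 11 early cells with NANOG at 8 or more held TDGF1, with a mean of 5.42 ± 0.82, against 25 of 32 cells between 4 and 8, with 3.34 ± 1.97. In these stages 22 early and 18 middle cells lay within 0.5 of the bound at 8.

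In the hatching stage NODAL did not follow NANOG by rank over cells. Over 26 cells the Spearman correlation with NANOG was -0.06 for NODAL, 0.45 for GDF3 and 0.47 for TDGF1, and with SOX17 -0.18, -0.57 and -0.50. Pearson's r of log2 values with NANOG was 0.27, 0.87 and 0.86. Within the 19 EPI-like cells the Spearman correlation with NANOG was -0.22, -0.34 and -0.32. For NODAL it was -0.12 within late EPI-like cells, which were a smaller part of their stage. All 7 cells with NANOG below 4 were the PE-like cells. SOX17-positive cells were NODAL-positive in 0 of 6 early (which allows up to 50%), 1 of 10 middle, 4 of 28 late and 6 of 9 hatching cells.

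A few late cells held both regulators. Of the 4 late cells with NANOG at 8 or more and SOX17 at 1 FPKM or more, 3 were positive for NODAL, 4 for GDF3, 4 for TDGF1, 2 for CFC1 and 3 for LEFTY1.

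**Figure D2:**
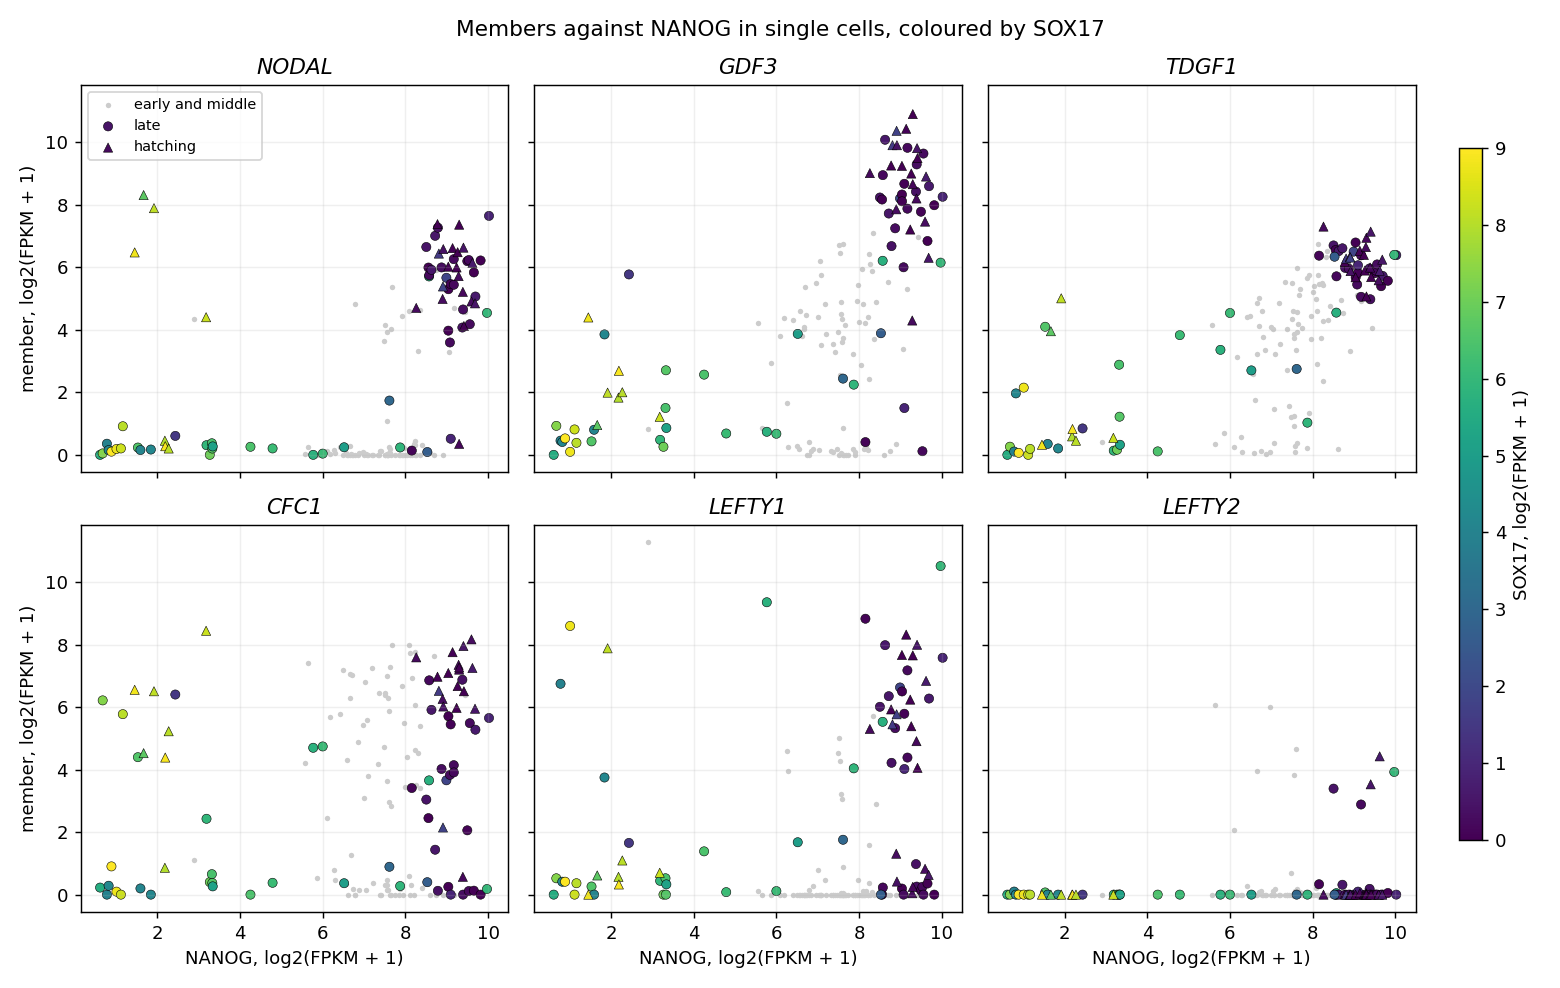
Each of the 6 genes (y axis) against NANOG (x axis) in single cells, both as log2(FPKM + 1), with late cells as circles and hatching cells as triangles coloured by SOX17, and early and middle cells in grey. NODAL, GDF3 and TDGF1 are high at the right and low at the left in late cells, and 4 hatching cells at the upper left of the NODAL panel are high in SOX17 and NODAL with little NANOG.

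Most cells held a ligand with a co-receptor. At least 1 ligand and 1 co-receptor were positive in 33 of 44 early (75%, 59.7% to 86.8%), 21 of 39 middle (53.8%), 33 of 52 late (63.5%) and 25 of 26 hatching cells (96.2%, 80.4% to 99.9%). Early cells mostly reached this with GDF3, since 10 of 44 held NODAL and all 10 of those held a co-receptor. Both co-receptors together were in 34 early, 7 middle, 22 late and 20 hatching cells. A ligand, a co-receptor and a LEFTY together were in 7, 4, 19 and 16 cells.

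The number of the 6 genes positive in the same cell had a median of 3 in early, 2 in middle, 3 in late and 5 in hatching cells. By class it was 4.5 in late EPI-like and 2 in late PE-like cells, and 5 in hatching EPI-like and 3 in hatching PE-like cells. All 6 were positive in 5 cells, 1 early, 2 late EPI-like and 2 hatching EPI-like. None was positive in 6 late PE-like cells, 3 middle cells and 1 early cell.

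**Figure D3:**
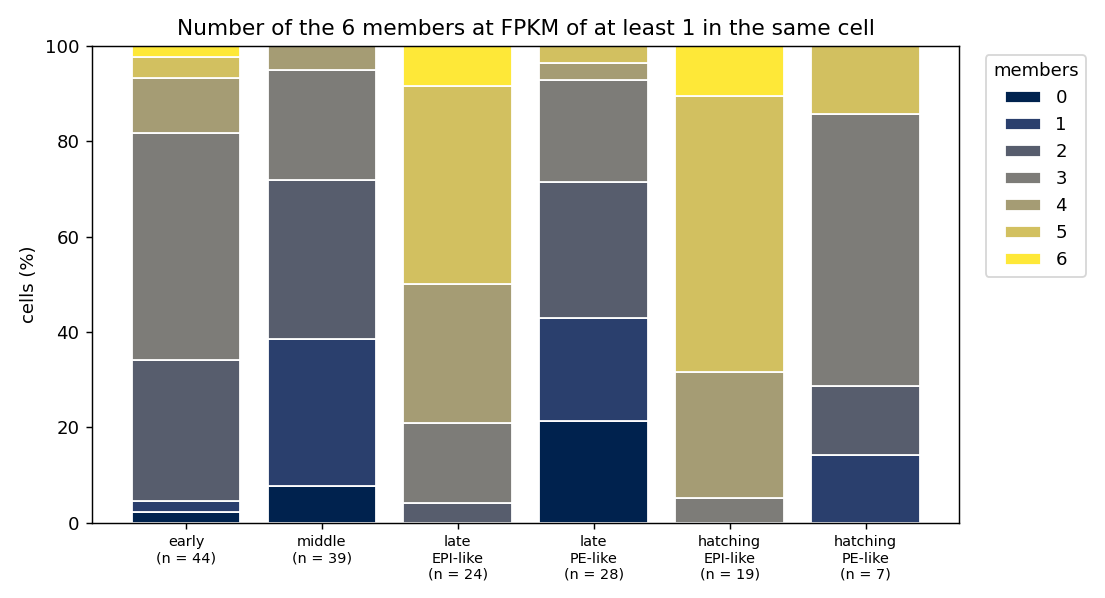
Share of cells (y axis, %) with 0 to 6 of the 6 genes at 1 FPKM or more, by stage and class, with the number of cells under each bar. EPI-like cells of the late and hatching stages mostly hold 4 or 5, with medians of 4.5 and 5, and 6 of the 28 late PE-like cells hold none.

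Cell titles carry numbers, and cells in lower and higher ranges of them differed within a stage; the labels do not say what the numbers mean. In the middle stage CFC1 was positive in 8 of 12 cells with numbers above 29 and in 1 of 25 cells up to 29, with mean log2 levels of 3.69 and 0.23. In the early stage the ranges were close for CFC1, at 5.07 above 28 and 4.79 up to 28. Middle minus early for CFC1 was thus -1.38 in the higher range and -4.56 in the lower range.

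For GDF3 the middle step was 0.11 in the higher range and -1.98 in the lower range, so the middle mean was below the early one in the lower range and not in the higher. LEFTY1 was positive in 0 of 19 early cells of the higher range, which allows up to 15.8%, and in 7 of 25 of the lower range. In the late stage it had a mean of 3.92 above 22 and 1.51 up to 22, and among EPI-like cells 5.02 and 1.13. LEFTY1 in late EPI-like minus PE-like cells was 1.98 in the higher and -0.77 in the lower range, and hatching minus late in EPI-like cells was -0.63 in the higher and 3.59 in the lower range. LEFTY2 was the reverse in the early stage, with 3 of 19 positive cells in the higher and 1 of 25 in the lower range. Over all stages, 9 of its 11 positive cells had higher numbers.

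All 7 hatching PE-like cells had numbers up to 18, beside 5 EPI-like cells. Within that range NODAL stood 1.60, GDF3 6.58, TDGF1 4.47 and LEFTY1 3.12 higher in EPI-like cells, but CFC1 differed by -0.73. CFC1 in hatching EPI-like cells was 7.05 ± 0.70 (SD, n = 14 cells) above 18 and 4.49 ± 2.95 (SD, n = 5 cells) up to 18. TDGF1 in hatching minus early cells was 3.26 in the higher and -0.88 in the lower range, which has 7 PE-like among 12 hatching cells. NODAL in hatching minus early cells held in both ranges, at 4.80 and 3.47, and in late EPI-like minus PE-like cells at 5.26 and 5.36.

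Counted over the 6 genes for higher minus lower numbers, the early stage had 0 higher and 2 lower (TDGF1 and LEFTY1), where 5.69% of all genes were higher and 5.33% lower. The middle stage had 2 higher (GDF3 and CFC1) and none lower, against 3.93% and 8.63%. The late stage had LEFTY1 higher and none lower, against 4.53% and 3.54%, and hatching EPI-like cells had CFC1 higher and none lower, against 16.1% and 7.66%. The meaning of the numbers was not tested.

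Within a range the stage and class counts were as follows. Middle minus early had 1 of 6 lower in the higher range (CFC1, against 7.65% of all genes) and none higher (4.77%), and 4 of 6 lower in the lower range (against 5.44%) with none higher (8.31%). Late EPI-like minus PE-like had 5 of 6 higher in the higher range (against 10.5%, with 9.91% lower), and 3 of 6, NODAL, GDF3 and TDGF1, in the lower range (against 12.9%, with 11.1% lower). The class pattern of both ligands and TDGF1 was thus present in either range.

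For EPI-like hatching minus late, CFC1 was higher in the higher range (against 9.26%, with 7.85% lower). GDF3, CFC1 and LEFTY1 were higher in the lower range (against 14.1%, with 19.9% lower). Hatching EPI-like minus PE-like in the lower range had 4 of 6 higher, all but CFC1 and LEFTY2, against 31.5%, with 18.5% lower.

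**Figure D4:**
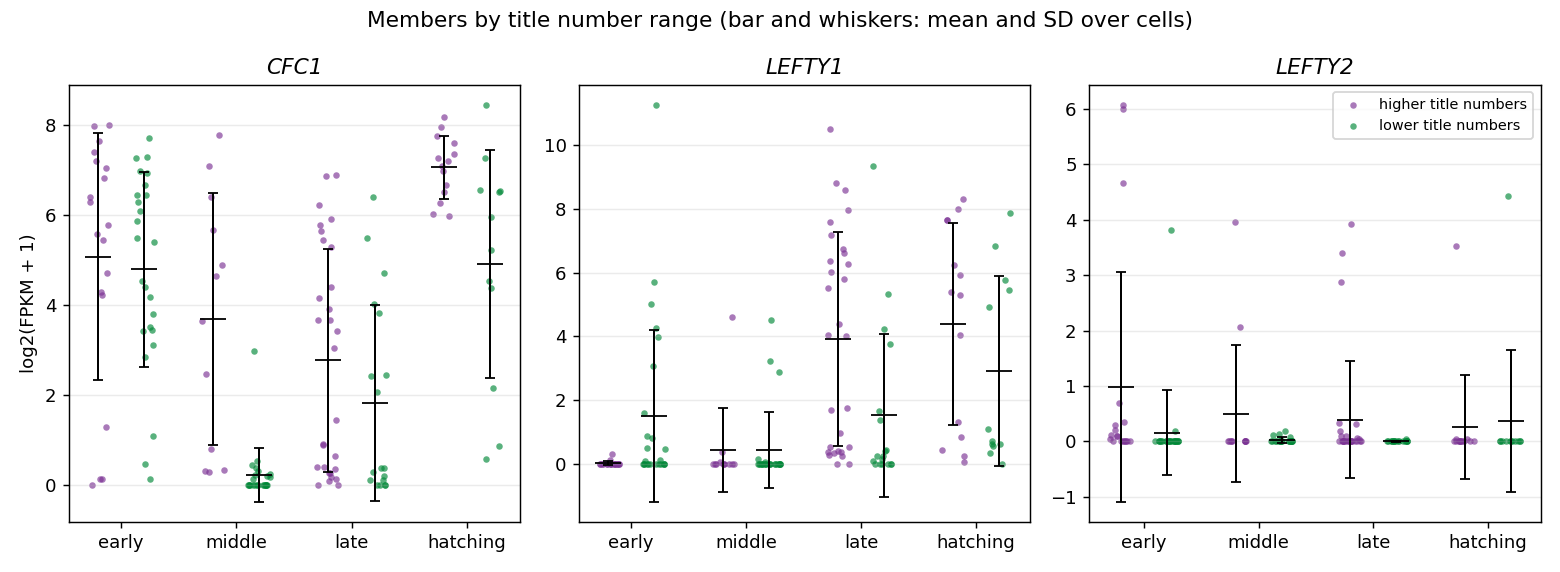
CFC1, LEFTY1 and LEFTY2 as log2(FPKM + 1) in single cells, by stage and by the range of the number in the cell title (higher left, lower right, HS titles left out), with a point per cell and the mean and SD over cells as bar and whiskers. Middle CFC1 (means 3.69 and 0.23) and late LEFTY1 (3.92 and 1.51) were higher in the higher range.

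Of 33 other genes of the pathway, 28 have a row under their symbol and 20 passed the filter on mean FPKM. For hatching minus early 8 of the 20 were higher and 3 lower, beside 11.3% and 16.2% of all genes, and the median difference was 0.55. For late EPI-like minus PE-like cells 3 were higher and 3 lower, beside 9.01% and 8.23%. For hatching EPI-like minus PE-like cells 4 were higher and 6 lower, beside 33.7% and 14.2%. The same counts for the 6 genes were 5 higher and 0 lower in each of these 3 comparisons.

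Other ligands had low values or were listed at 0. INHBA, a subunit of activin A, was listed at 0 in all 161 cells, and GDF1, a NODAL partner in mouse, was above 0 in 6 cells with at most 4.45 FPKM. The antagonists CER1 and FSTL3 were listed at 0 in all cells, and DAND5 reached at most 0.17 FPKM. NOMO1, a widely expressed gene, was also listed at 0 in all cells, so a 0 throughout the table does not show that a gene has no RNA. INHBB has no row.

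Of the convertases that cleave the NODAL precursor, FURIN had mean log2 levels of 4.41, 3.72, 2.0 and 2.31 in the 4 stages. At hatching EPI-like cells averaged 0.99 and PE-like cells 5.90, a difference of -4.91. PCSK5 was 2.37 in late EPI-like and 1.08 in late PE-like cells. At hatching both FURIN and PCSK5 were called lower in EPI-like cells, where 14.2% of all genes were lower. For late EPI-like minus PE-like cells, neither convertase was called in the higher range of title numbers. In the lower range 1 was higher and 1 lower, where 12.9% and 11.1% of all genes were.

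Of 5 receptors listed, the type I receptors ACVR1B, TGFBR1 and ACVR1C have a row, with low levels, and the type II receptors ACVR2A and ACVR2B have none. The type I receptor ACVR1B (ALK4) had stage means of 0.81, 1.39, 1.57 and 1.11 and TGFBR1 (ALK5) 1.07, 1.40, 1.51 and 1.34, and ACVR1C (ALK7) was at most 0.027 FPKM. ACVR1B was 0.67 in late EPI-like and 2.34 in late PE-like cells. That difference was -2.23 in the higher and -0.92 in the lower range of title numbers, so it passed 1 log2 unit in the higher range alone.

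Of the signal transducers, SMAD2 was even, from 2.94 to 3.45, and FOXH1, a DNA-binding partner of SMAD2, was high in every stage, from 6.49 to 7.09. SMAD3 was 3.18, 1.98, 1.12 and 1.21, and thus -1.96 for hatching minus early.

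Of 7 other inhibitors that passed the filter, 2 were higher and 0 lower in late EPI-like than in late PE-like cells, and 2 were higher and 2 lower at hatching, where 33.7% of all genes were higher and 14.2% lower. SMAD7, an inhibitory SMAD, was 2.02 in late EPI-like and 0.69 in late PE-like cells, and 2.44 and 0.89 at hatching. PMEPA1, which interferes with SMAD activation, was 2.51 in late EPI-like and 0.32 in late PE-like cells. BAMBI, a decoy receptor, went the other way at 4.30 in hatching EPI-like and 7.96 in hatching PE-like cells. SKIL, a repressor of SMAD targets, stood 1.78 higher in hatching than in early cells, while TGIF1 kept between 7.07 and 7.42 in all stages.

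Mesendoderm genes that NODAL signalling drives at gastrulation in mouse differed from one another. MIXL1 was 2.65, T (brachyury) 2.58 and EOMES 1.47 higher in hatching than in early cells, whereas GSC (goosecoid) differed by -4.78. T was 3.45 in hatching EPI-like and 0.22 in hatching PE-like cells. It was the 1 gene of the 5 on this list called higher in hatching EPI-like cells, and 2 were lower. Of all genes 33.7% were higher and 14.2% lower there. In the late stage none of the 5 was higher in EPI-like cells and 2 were lower, against 9.01% and 8.23% of all genes. GSC was highest where NODAL was sparse, at 5.32 in early and 5.12 in middle cells.

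**Figure D5:**
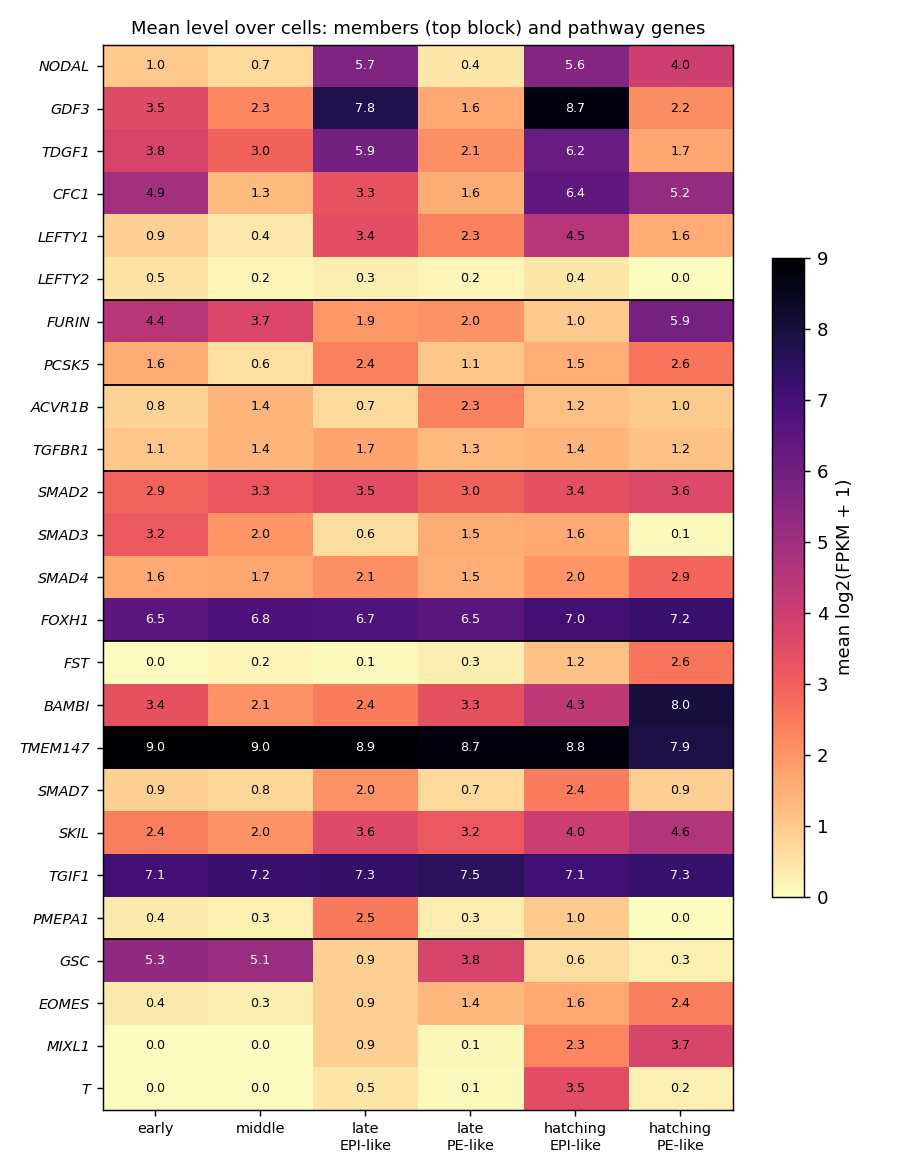
Mean log2(FPKM + 1) over cells of the 6 genes (top block) and pathway genes past the filter (convertases, receptors, transducers, inhibitors and mesendoderm genes, from the top) in 6 groups of cells. FOXH1 is high everywhere, ACVR1B and TGFBR1 are low, and FURIN and BAMBI are highest in hatching PE-like cells.

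The genes most like each member by Spearman correlation over all 161 cells, among 9780 ranked, depended on the cells used. Of the 5 genes of each list, late and hatching cells alone gave 0 again for NODAL, 1 for GDF3, 2 for TDGF1, 1 for CFC1 and 0 for LEFTY1. Pearson's r of log2 values gave 3, 1, 4, 2 and 2. Over all cells the list for NODAL included FXYD5 (0.71), PHC1 (0.71), FGF13 (0.68) and LGALS1 (0.66). For GDF3 they were RNASET2 (0.70), DPPA5, KHDC3L, FGF13 and IGFBP6. For TDGF1 they were KHDC3L (0.84), DPPA5 (0.81), NANOG (0.76), OOEP (0.72) and IGFBP6 (0.71).

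CFC1 had lower values and none of these genes: RPL10 (0.59), HMGN2 (0.53), HIST2H2AA4, RPS4X and CARHSP1. For LEFTY1 they were FXYD5 (0.61), ZIC2 (0.58), TERF1, UNC93B1 and LGALS1. LEFTY2 was positive in too few cells to be ranked. The cells share stage and depth, and many of the values do not hold within a stage: FXYD5 with NODAL was 0.81 in late but -0.11 in hatching cells. KHDC3L with TDGF1 was 0.70, 0.70, 0.86 and 0.64 in the 4 stages.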

How the data were processed

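The polyA RNA of 161 single inner cells was turned into cDNA, amplified with PCR and read on both ends over 150 bases, per the labels' protocols. The authors deposited FPKM values as 1 table of 16049 symbols; TopHat2 2.1.0, HTSeq, FastQC and DESeq2 appear, without roles, per the submitters' processing notes. Build and gene models: not given in the sources used here. Whether duplicate reads were removed is not stated, so reads are not independent molecules. All columns matched a cell title, and no 2 cells were identical.

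FPKM came in steps: a step was recovered for 13857 of 13857 genes above 0 in at least 2 cells. Every value was a whole number of steps within 0.0001, covering at least 99.99% of each cell's FPKM. A step was taken as 1 read, which is too large where all read numbers of a gene share a divisor, as can occur with few cells. The recovered reads gave depth and an alternative threshold. No count test was run, because each stage is 1 sample.

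Levels are means over cells of log2(FPKM + 1). Positive means FPKM of at least 1, and a difference is called at 1 log2 unit among genes with mean FPKM of at least 1. A share of 0 allows 3 counts of the total. Late and hatching cells were clustered within their stage from the 1000 most variable genes (10 principal components, Ward, 2 to 4 clusters by silhouette), leaving out the 6 genes, the pathway genes and the markers. A cluster was named with at least 5 cells and most raised markers of 1 class, at least 3 of them positive in 50% of its cells; cells were transferred one by one, per the labels' protocols, and no doublet caller was run.

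Title numbers were split at 28 (early), 29 (middle), 22 (late) and 18 (hatching), with titles starting with HS left out. Named genes are the 6, NANOG, SOX17, POU5F1, the pathway list, and for each member positive in at least 20% of cells the 5 genes with the highest Spearman correlation; 1 gene of the pathway list, kept in its counts, and 1 of the correlated genes are not reported here. The members, the lists, the markers and the ranges were chosen with earlier results of these data known. Alternatives were other pseudocounts, scalings, averages, thresholds, filters, class definitions and title ranges. The steps were tested on simulated data. Clustering used scikit-learn 1.9.0, intervals and correlations scipy 1.17.1, figures matplotlib 3.10.9, tables pandas 2.3.3 with numpy 2.4.6, all under Python 3.11.15.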

Additional observations from a re-analysis of the deposited data

Results flagged for a closer look

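LEFTY1 in the 7 hatching PE-like cells had 1 cell far from the others, at 234 FPKM against at most 1.13 FPKM in the other cells. The gap, divided by the range of the group on the log2 scale, was 0.861, above Dixon's 95% critical value for 7 samples. It was 1 of 5 gene groups tested in these cells, and chance flags about 1 in 20 where values are independent and normally distributed. Neither was shown for these cells, whose embryos are not named. The flag thus marks a cell to look at and is not a test of it. The same cell held NODAL at 236 FPKM, TDGF1 at 31.1 FPKM and CFC1 at 89.8 FPKM, with SOX17 at 279 FPKM and NANOG at 2.77 FPKM, and had 6.59 M reads. The cause was not tested.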

How the results depend on the processing

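Of 228 stage differences recomputed, 219 stayed within 1 SD between cells of the main value, and of 300 class differences 285 did. Part of this was fixed in advance. Every other class definition kept all 26 hatching cells in their class, so hatching EPI-like minus PE-like could not change with it. Leaving out HS titles could not change comparisons of early and hatching cells, where no title starts with HS. A value within 1 SD may also have lost its call at 1 log2 unit. A change of sign was counted only where the main difference was at least 1 log2 unit, so smaller differences may have changed sign. Of 78 shares of cells recomputed, 34 left their interval, 21 of 24 with any value above 0 as positive and 13 of 24 with 3 recovered reads, against 0 of 24 at 5 FPKM. Of 48 correlations with NANOG or SOX17 within a title range, 10 moved by 0.3 or more and 1 of the stronger ones changed sign. Sign changes of weaker correlations were not counted. Of 10 lists of most alike genes 9 kept 3 or fewer of 5 genes. NODAL was 6.16 for hatching minus early and 7.32 for late EPI-like minus PE-like at a pseudocount of 0.1. At a pseudocount of 10, late EPI-like minus PE-like was 2.53 for NODAL, 4.20 for GDF3 and 2.05 for TDGF1, and hatching EPI-like minus PE-like 4.97 for GDF3 and 2.54 for TDGF1. With log2 of the mean FPKM, LEFTY1 was 0.13 for hatching minus early, -4.55 for middle minus early and -1.17 for late EPI-like minus PE-like, LEFTY2 -1.72 for middle minus early, NODAL -0.52 and TDGF1 3.34 for hatching EPI-like minus PE-like, and TDGF1 2.09 for late EPI-like minus PE-like. Without the highest cell of each comparison, chosen after seeing the data, these were 4.05, -0.63, -0.32, -1.21, 0.19, 3.26 and 2.04 in that order; the first 2 thus rest on the early cell at 2465 FPKM. The median over cells gave TDGF1 5.65 for hatching EPI-like minus PE-like. In the lower title numbers CFC1 was -0.73 for hatching and LEFTY1 -0.77 for late EPI-like minus PE-like, and TDGF1 -0.88 for hatching minus early and -0.037 for hatching minus late. In the higher numbers GDF3 was 0.11 for middle minus early, CFC1 -0.92 for late minus middle, LEFTY1 -0.63 for EPI-like hatching minus late, and TDGF1 with SOX17 0.39 over hatching cells; no PE-like cell of the hatching stage was there, so that class difference has no value. Other causes were not tested.

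At pseudocounts of 0.1 and 10, genes called higher numbered 1667 and 333 for hatching minus early (1104 at 1), 1063 and 21 for middle minus early (299) and 1596 and 221 for late EPI-like minus PE-like (881). Genes called lower numbered 2650 and 517 (1584), 736 and 81 (353) and 1474 and 230 (805). With the same FPKM sum in each cell, middle minus early gave 587 higher and 212 lower. At 10, hatching EPI-like minus PE-like gave 1364 higher (3295) and 706 lower (1392). Median-of-ratios scaling moved its median over all genes to 0.15. With all stages clustered together 39 of 52 late cells kept their class, with marker scores 48, and all 26 hatching cells kept it. Without the early cell that stood apart, an alternative chosen after seeing the data, no direction changed. With 3 recovered reads NODAL was positive in 82.7% of late cells. No paired analysis was possible because the labels tie no cells across stages. With no embryo named, differences between embryos and between stages cannot be told apart, and near-identical gene copies limit LEFTY1, LEFTY2, CFC1 and TDGF1.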

Other observations

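In the RefSeq annotation GDF3 and NANOG lie on the same chromosome with 3 protein-coding genes between them, DPPA3, CLEC4C and NANOGNB. DPPA3, a maternal factor of naive cells, differed by less than 1 log2 unit between classes: its mean log2 level was 10.89 in late EPI-like and 10.01 in late PE-like cells, and 10.49 in hatching EPI-like and 10.18 in hatching PE-like cells. CLEC4C was 2.79 in late EPI-like and 1.005 in late PE-like cells, and positive in 18 of 24 and 8 of 28 cells, but 1.32 in hatching EPI-like and 0.92 in hatching PE-like cells. These genes were chosen after their values were seen.

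Of the 16 early and middle cells positive for NODAL, 6 had GDF3 below 1 FPKM. In 5 of those 6 GDF3 was at 0.34 FPKM or less. GDF3 was positive in 30 of all 44 early and 22 of all 39 middle cells, so the NODAL-positive cells were close to the share over all cells.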
